A study of Drosophila melanogaster with 2 samples.

Results

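The genes described here encode the actin machinery of myoblast fusion in Drosophila melanogaster: mbc, Ced-12, Rac1, Rac2, siz, rols, blow, Vrp1, Hem and Abi. These 10 genes were chosen by name, with earlier results of these data known, out of 13945 protein-coding genes on the 6 main chromosome arms. All 10 were found in the annotation. The data are binding sites of Lame duck (Lmd), a zinc finger transcription factor of fusion-competent myoblasts, mapped by chromatin immunoprecipitation and sequencing. The 2 samples were biological replicates 1 and 2 of 1 group: whole embryos aged 0 to 18 hours that carried an lmd-eGFP transgene, sonicated to 200 to 800 bp and precipitated with anti-GFP. The labels do not say what drives the transgene or whether the embryos kept their own lmd. All tissues were mixed, so strong binding in few cells and weak binding in many cells cannot be told apart.

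Larval muscles form when fusion-competent myoblasts fuse with founder cells. Adhesion receptors bring the cells together, and signals from them remodel the actin cytoskeleton at the contact, where a dense actin focus in the fusion-competent cell pushes into the founder cell. Rolling pebbles (rols) is a scaffold on the founder cell side. Myoblast city (mbc) and its partner Ced-12, also called Elmo, activate the GTPases Rac1 and Rac2, while schizo (siz, also called loner) activates Arf GTPases. Blown fuse (blow) and the verprolin Vrp1 act with WASp, and Hem (kette) and Abi are subunits of the SCAR complex. WASp and SCAR each switch on the Arp2/3 complex, which nucleates branched actin.

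The authors called peaks from each replicate and from both together, and kept those with an irreproducible discovery rate (IDR), a measure of how poorly a peak's rank repeats between lists, of 0.01 or less. Of the joint sets, 1 is named conservative by the authors, and the other, with more peaks, is called the wider joint set here. A summit is the position of the highest signal within a peak. Every one of the 10 genes had at least 1 Lmd summit in its locus, taken as the gene body with 2 kb on each side, in the conservative peak set. Of all protein-coding genes, 33.5% did. The share rose with locus length to 64.5% in the longest decile, to which 4 of the 10 genes belong. The 10 loci held 21 of the 4998 conservative summits: 6 at rols, 5 at siz, 3 at mbc and 1 at each of the other genes. Signal values, which are the authors' and serve only to order peaks within a list, ran from 2.94 to 453 with a median of 139, against a median of 159.97 for all conservative peaks. The strongest were at Hem (453, rank 568) and mbc (434, rank 624). Both lay within 500 bp of the starts of the gene and of a neighbour transcribed the other way. Of the 21, 3 were among the 1249 strongest of the 4998, and an mbc peak at rank 1273 fell just outside.

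Sequences at or beside the strongest conservative site of Hem, Abi, mbc, siz and rols are given first, because these sites are described in the results and have bases outside exons that can be shown. They were read from the plus strand of the Release 6 genome, dm6. Capitals would mark a match to any of 8 searched motifs, and none of these stretches has one. Hem, the window centred on the summit, chr3L:22288422-22288622, lies wholly between Hem and IleRS. Abi, chr3R:14122421-14122570, lies between Abi and twf and starts at the first base beyond Abi. For mbc the summit itself lay in the 5′ UTR of the divergent neighbour FBgn0039120, so the 143 bases that separate the starts of the genes are shown, chr3R:23781622-23781764, beginning 43 bp from the summit. For siz (chr3L:21037412-21037612) and rols (chr3L:12056744-12056944) the windows are intronic, that of rols just upstream of an internal start.
Hem: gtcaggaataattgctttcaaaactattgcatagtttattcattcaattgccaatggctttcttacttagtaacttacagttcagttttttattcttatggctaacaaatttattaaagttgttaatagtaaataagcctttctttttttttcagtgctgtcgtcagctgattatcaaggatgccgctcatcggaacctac
Abi: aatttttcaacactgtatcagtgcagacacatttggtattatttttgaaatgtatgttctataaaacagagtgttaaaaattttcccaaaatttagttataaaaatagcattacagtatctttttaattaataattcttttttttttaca
mbc: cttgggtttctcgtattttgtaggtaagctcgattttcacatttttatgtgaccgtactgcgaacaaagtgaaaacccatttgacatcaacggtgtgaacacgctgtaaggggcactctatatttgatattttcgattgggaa
siz: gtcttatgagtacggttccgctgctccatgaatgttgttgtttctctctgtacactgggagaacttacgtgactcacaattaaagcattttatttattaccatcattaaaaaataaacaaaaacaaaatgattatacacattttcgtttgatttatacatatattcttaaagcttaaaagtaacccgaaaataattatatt
rols: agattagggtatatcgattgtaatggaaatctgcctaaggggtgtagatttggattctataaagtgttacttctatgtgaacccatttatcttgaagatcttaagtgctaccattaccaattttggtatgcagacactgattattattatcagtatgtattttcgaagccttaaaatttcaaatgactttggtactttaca

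These stretches held 21.3% G and C at Abi, 28.9% at siz, 32.3% at rols, 32.3% at Hem and 39.9% at mbc. Over the 21 summits, windows of 201 bp held from 27.4% to 54.2% with a median of 32.3%, and the median over all conservative summits was 34.8%. The windows were searched on both strands for 8 motifs, with overlaps between motifs allowed: Gli-type CCACCCA, Zic-type CCCGCTG, Mef2, Tinman TCAAGTG, Twist-type E-boxes CATATG and CATGTG, DREF TATCGATA, M1BP GGTCACACT and GAGA factor GAGAGAG. Of the 21 windows, 16 held none of them. The Mef2 motif was in 2 windows (12.5% of all conservative summits hold it), the Tinman motif in 2 (3.58% of all) and an E-box in 1 (14.3% of all). The Gli-type core, of the family to which Lmd belongs, was in 0 windows, against 2.26% of all. The other motifs were also in 0 windows, and their shares over all summits were 1.08% (Zic-type), 2.36% (DREF), 0.940% (M1BP) and 2.68% (GAGA factor). The sites with a match are shown with the match in capitals, from the plus strand, because they are the few where a motif of muscle factors stood near a summit. They lay at chr3L:1300307-1300336 for the Mef2 motif of Rac1, 23 bp from the summit, and at chr3L:12037961-12037990 for that of rols. The Tinman motifs of rols and siz were at chr3L:12030799-12030827 and chr3L:21054149-21054177, the latter on the minus strand. The rols Tinman match was at the peak of signal 76.2, in neither replicate set, and the siz match was at the peak of signal 2.94. The E-box of mbc was at chr3R:23784249-23784278, 62 bp from the summit.
Rac1 Mef2: ttacatctaaCTATTATTAAcaagatcatt
rols Mef2: cagcatacaaCTAATTTTAAagcatttaca
rols Tinman: tcccgtttttgTCAAGTGggcttgaatgg
siz Tinman: tcccaatgtgcCACTTGAgcagcgagcga
mbc E-box: cccactgtgccgCATATGcttttgaaagtt

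**Figure D1:**
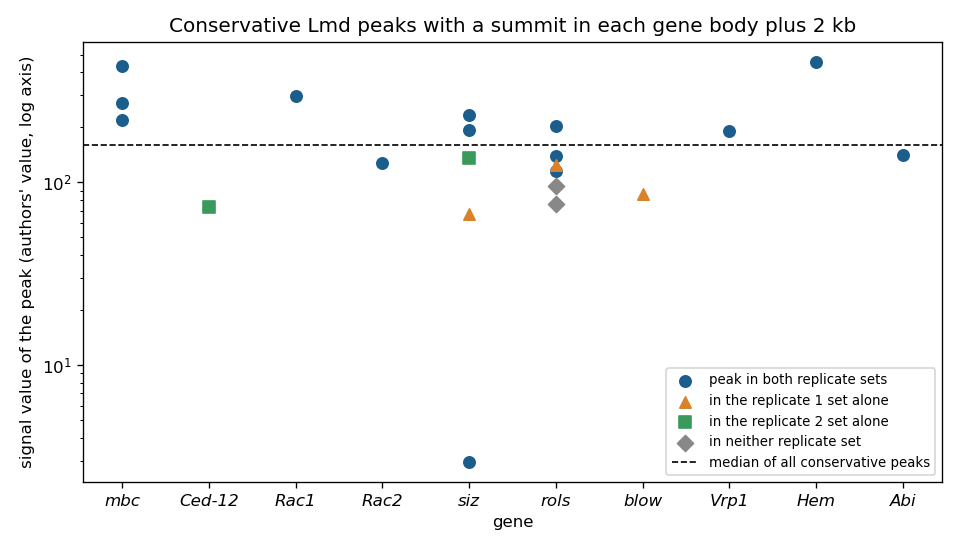
Signal value (log axis) of each of the 21 conservative peaks with a summit in the body of a gene or within 2 kb of it, by gene. Shapes give the replicate sets that a peak overlaps by at least 1 bp, and the dashed line is the median of the conservative set (159.97). The peaks of mbc, Rac1, Hem and Vrp1 lie above the line, and those of Ced-12 and blow lie below 100.

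The scaffold gene rols (FBgn0041096, chromosome 3L, 12008225 to 12064859, minus strand) held the most sites, 6, all in its introns. The strongest (12056662 to 12057025, signal 202, rank 1882) had its summit 370 bp upstream of an internal start, so it is the site of this gene closest to a promoter, and that start belongs to rols alone. It was called in replicate 1 (signal 94.7) and in replicate 2 (120.1). Another, 1838 bp inside the gene from its distal start, had a joint signal of 125 and was called in replicate 1 (93.9) but not in replicate 2 (30.6). Those of signal 139 and 115 were in both replicate sets. Those of signal 94.99 and 76.2 were in neither replicate set, and the weaker was also missing from the wider joint set. The nearest start to 2 of the intronic summits belonged to genes nested in rols on the other strand, CG6793 (4391 bp) and CG43993 (1806 bp).

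The Rac activator mbc (FBgn0015513, chromosome 3R, 23781765 to 23801634, plus strand) had 3 conservative sites in a row at its 5′ end. The first (23781448 to 23781685, signal 434) had its summit 186 bp before the mbc start and 42 bp from that of the neighbour FBgn0039120, a nuclear pore gene transcribed away from it. The starts of these genes are 144 bp apart, so the site adjoins both. Its signal was 173 in replicate 1 and 261 in replicate 2. The next sites, in an intron 1180 and 2434 bp inside the gene, had joint signals of 270.1 and 219.7. In replicate 1 they were at 181 and 138, ranks 627 and 1000 of 3929, and in replicate 2 at 80.2 and 82.5, ranks 3016 and 2924 of 5544. Thus the promoter site and the first intronic site were nearly level in replicate 1, while the promoter site stood well above both intronic sites in replicate 2. Replicate 2 alone added 3 weaker intronic peaks, 5746, 6826 and 9277 bp from the start, with signals of 58.9, 44.2 and 46.2. The first pair of these was also in the wider joint set, at 77.4 and 72.9.

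Ced-12, the partner of mbc (FBgn0032409, chromosome 2L, 12097838 to 12100839, plus strand), had 1 weak site that lay at other promoters. Starts of Mt2 and CG6712 were within 500 bp of its summit. The peak (12096442 to 12096805, signal 73.1, rank 4664) had its summit in coding sequence of Mt2, 74 bp from the Mt2 start and 1214 bp from that of Ced-12. It was called in replicate 2 (56.2) and not in replicate 1, whose ranked list had 33.9 there, and it was missing from the wider joint set. Within 500 bp of the Ced-12 start there was no peak in any of the 4 unthresholded ranked lists. The single site of this locus therefore rests on the 2 kb flank, and of the replicates taken alone only replicate 2 passed the threshold there.

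The conservative sites of the small GTPase genes lay in the 3′ UTR of the gene or beyond its 3′ end. Neither was within 500 bp of an own start. Rac1 (FBgn0010333, chromosome 3L, 1300879 to 1302683, minus strand) had a peak of signal 298 (1300249 to 1300437, rank 1112) beyond its 3′ end, 2343 bp from its start, with the summit in the 3′ UTR of the convergent gene scf. The peak was in both replicates, at 180.2 and 114. The nearest start was that of scf, 1454 bp away. At the Rac1 start itself, which is 261 bp from that of Acat2, the ranked list behind the conservative set had no more than a peak of signal 30.9 at rank 33812 of 115975. Rac2 (FBgn0014011, chromosome 3L, 7432762 to 7435190, minus strand), which lies inside an intron of CG42458, had a peak of 126.8 in its own 3′ UTR (7433380 to 7433743, rank 3154), called in replicate 1 (70.7) and replicate 2 (58.1). A second Rac2 peak, 43 bp from its start, was in the wider joint set (67.1) but not in the conservative set or in either replicate set. It stood at 33.7 and 30.6 in the ranked lists of the replicates. Rac1 and Rac2 are close paralogs, and the labels do not say how reads with more than 1 match were treated.

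The Arf activator siz (FBgn0026179, chromosome 3L, 21034535 to 21075444, plus strand) had 5 sites, all in introns and none within 500 bp of its 4 starts. The strongest (21037484 to 21037599, signal 234, rank 1555) was 2977 bp inside the gene from the first start and was in both replicate sets, at 118 (rank 1283 of 3929) and 111 (rank 2098 of 5544). A site 4869 bp upstream of an internal start (signal 194) was also in both, at 93.4 (rank 1720) and 97.0 (rank 2432). The site of signal 136 was called in replicate 2 alone (88.6, against 48.0 in the replicate 1 ranked list). That of signal 66.8, 1667 bp from a start, was called in replicate 1 alone (43.8, against 30.8). The fifth peak had a signal of 2.94, rank 4989 of 4998. It shared 153 bp with the site of signal 194 and matched the same replicate peaks, with its summit 203 and 191 bp from theirs, so the replicates give it no support apart from its neighbour.

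**Figure D2:**
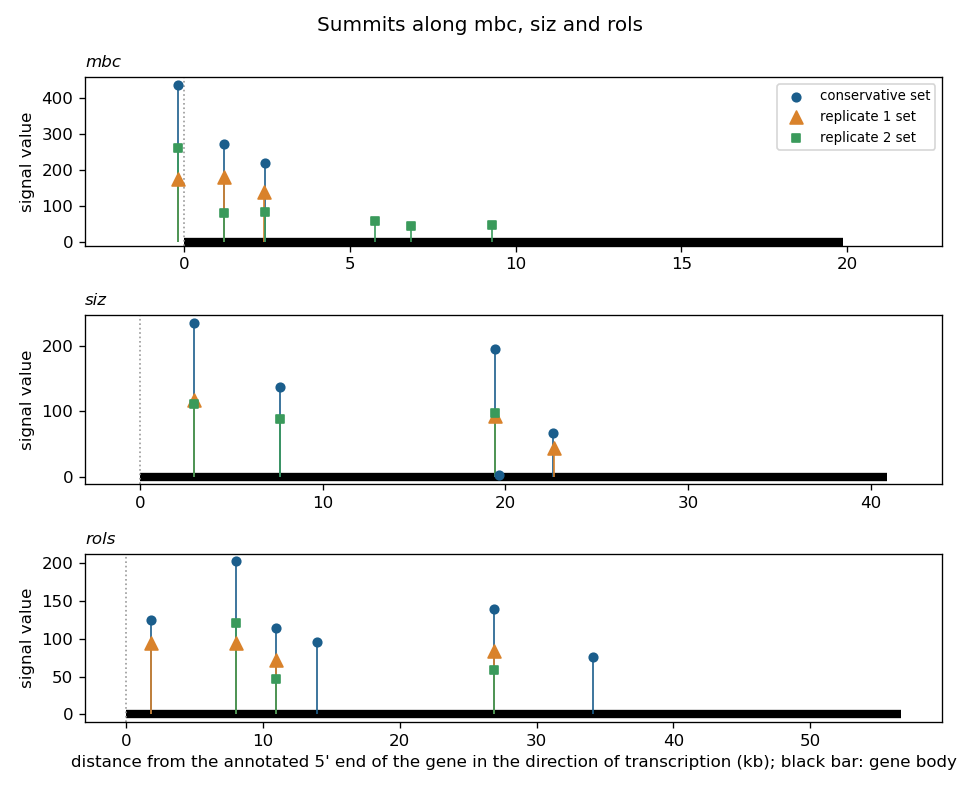
Summits along mbc, siz and rols by distance from the annotated 5′ end in the direction of transcription (kb). Heights are the authors' signal values, which do not share a scale between sets, and the black bar is the gene body. The mbc sites lie within 2434 bp of the start with additional replicate 2 peaks to 9277 bp, while those of siz and rols are spread over introns.

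The genes of the WASp arm each had a site at an own start. Blow (FBgn0004133, chromosome 2R, 7580488 to 7587079, minus strand) had a peak of signal 86.1 (7587124 to 7587487, rank 4279) whose summit lay 227 bp upstream of its distal start, with no other start within 500 bp. It was called in replicate 1 (46.7) and not in replicate 2, whose ranked list had 37.8 there, and it was missing from the wider joint set. Vrp1 (FBgn0243516, chromosome 2R, 22106107 to 22122562, minus strand) had a peak of 190.6 (22122481 to 22122844, rank 2031) with its summit 101 bp upstream of its start. The summit was also 249 bp from a start of mei-S332, a gene that protects sister centromere cohesion, and lay in an intron of mei-S332. The replicates were at 56.9 and 132.8. Replicate 1 alone had another Vrp1 peak of like signal (57.9) in coding sequence, 890 bp from a start, and the wider joint set had an intronic one at 68.4.

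The SCAR complex genes Hem and Abi each had 1 site, placed between divergent starts, in all 4 peak sets. Hem (FBgn0011771, chromosome 3L, 22284354 to 22288195, minus strand) had the strongest peak of the 10 genes (22288388 to 22288629, signal 453). Its summit was 327 bp upstream of the Hem start and 143 bp from that of IleRS, the isoleucyl-tRNA synthetase gene. The replicates gave 223 (rank 445 of 3929) and 234 (rank 736 of 5544). Abi (FBgn0020510, chromosome 3R, 14119262 to 14122420, minus strand) had a peak of 140.9 (14122288 to 14122651, rank 2864) with its summit 50 bp upstream of a start. The gene twf, for the actin monomer binding protein twinfilin, starts 184 bp from the summit. The replicates gave 62.1 and 82.5 at Abi, so Hem stood above Abi in each of them.

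Over all 10 genes, summits at promoters mostly adjoined a second gene. A summit lay within 500 bp of an own start at 6 genes (mbc, rols, blow, Vrp1, Hem and Abi), and 17.2% of all protein-coding genes had one. Of the 21 summits, 7 lay within 500 bp of any protein-coding start, against 38.2% of all conservative summits. At 5 of the 7 the starts of 2 genes were within that distance, while 37.0% of all promoter summits adjoin 2 genes or more. Among the 5, the site in the Ced-12 locus adjoined Mt2 and CG6712 and not Ced-12 itself. The other 2 of the 7, at rols and blow, adjoined their own gene alone. The nearest start belonged to another gene for 6 of the 21 summits, and for Ced-12, Rac1 and Hem this held for every summit they had. Over all protein-coding loci, this held for 45.6% of the summits counted in a locus. With the gene body alone in place of the wider locus, 4 of the 10 genes held a summit (mbc, Rac2, siz and rols), against 12.5% of all protein-coding genes. These placements do not show which gene a site regulates.

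Long genes hold a summit more often, and 4 of the 10 genes (mbc, siz, rols and Vrp1) were in the longest decile of loci, of which 64.5% held one. The shares in the deciles of the other genes were 47.1% for blow, 35.4% for Ced-12, Hem and Abi, 32.5% for Rac2 and 29.0% for Rac1. In the longest decile the mean was 1.74 summits a gene, so rols, siz and mbc, with 6, 5 and 3, lay above it and Vrp1, with 1, below. Per kb of locus the values were 0.0990 at rols, 0.111 at siz, 0.126 at mbc and 0.0489 at Vrp1. The compact loci of Rac1 and Rac2, at 0.172 and 0.156, were the highest, from 1 summit each. The 10 loci together had 0.108 summits per kb, and the loci of all protein-coding genes had 0.0492, from 0.0374 to 0.0636 by length decile. The genes were named with earlier results of these data known, so no test was applied to these counts.

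**Figure D3:**
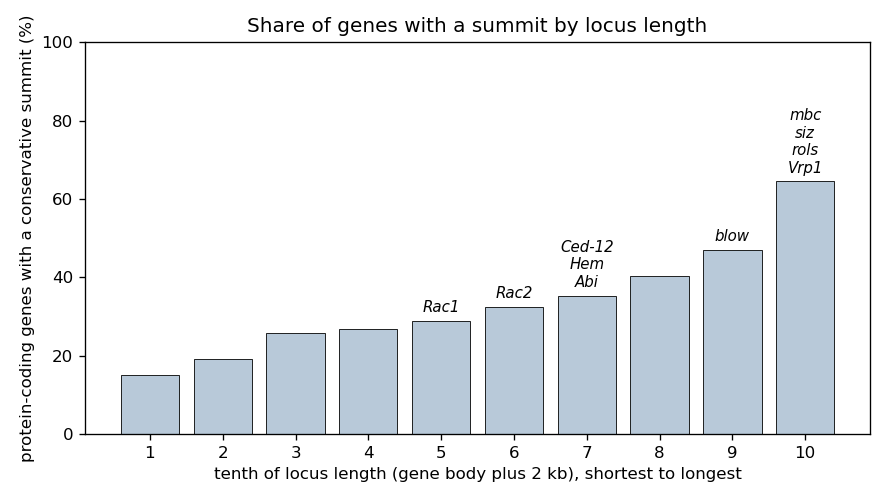
Share of protein-coding genes with a conservative summit in the locus, by decile of locus length from shortest to longest. Names stand above the decile to which a gene belongs. The share rises from 15.1% to 64.5%, and no member is in the 4 deciles of shortest loci.

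The peak sets and the replicates bear on how firmly each site stands. A summit was present at 8 of the 10 genes in the wider joint set (40.1% of all protein-coding genes), at 9 in replicate 1 (27.2%) and at 9 in replicate 2 (40.1%). A summit was in all 4 sets for 8 genes, and the exceptions were Ced-12 and blow. Of all protein-coding genes, 25.4% had one in all 4. Within 500 bp of an own start, a summit was present at 6 genes in the wider joint set (21.4% of all), at 6 in replicate 1 (13.3%) and at 5 in replicate 2 (22.6%). Of the 21 conservative peaks, 14 overlapped a peak of each replicate set, and 63.7% of all conservative peaks did. The 14 include the siz peak of signal 2.94, which overlapped the same replicate peaks as its neighbour. A further 3 were in replicate 1 alone, 2 were in replicate 2 alone, and 2, both in rols, were in neither. All 21 overlapped a peak of each unthresholded ranked list. The median distance between summits was 8 bp in replicate 1 and 14 bp in replicate 2, and the largest were 203 and 191 bp. Those lists are dense, with 0.837 and 0.671 peaks per kb over the main arms. The joint peaks were also called from the same replicates, so overlap with the ranked lists says little about how firm a site is. The group holds only these replicates, so their comparison is the only measure of error.

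**Figure D4:**
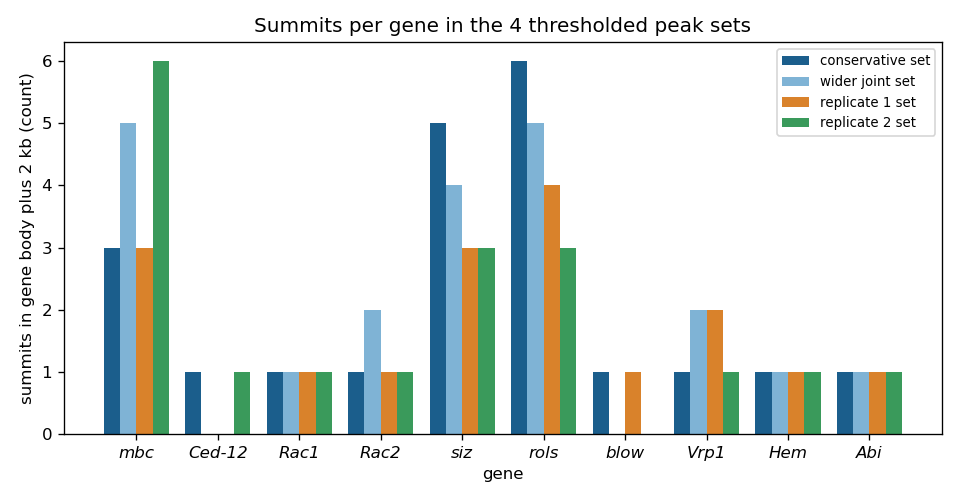
Number of summits in each gene body plus 2 kb, in the conservative, wider joint, replicate 1 and replicate 2 sets. Rac1, Hem and Abi have 1 in each set, mbc has from 3 to 6, and Ced-12 and blow have 0 in the wider joint set and in 1 replicate set each.

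The order of the strongest sites depended on the replicate. In replicate 1 the Hem site (223) led, followed by the first intronic mbc site (181), the Rac1 site (180.2) and the mbc promoter site (173), with little between the last 3. In replicate 2 the mbc promoter site (261) led Hem (234), and the next were Vrp1 (132.8), the rols start (120.1) and Rac1 (114). The Hem and mbc promoter sites were thus not ordered beyond the difference between replicates. Among the weakest, Ced-12 and blow fell below the threshold in opposite replicates.

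**Figure D5:**
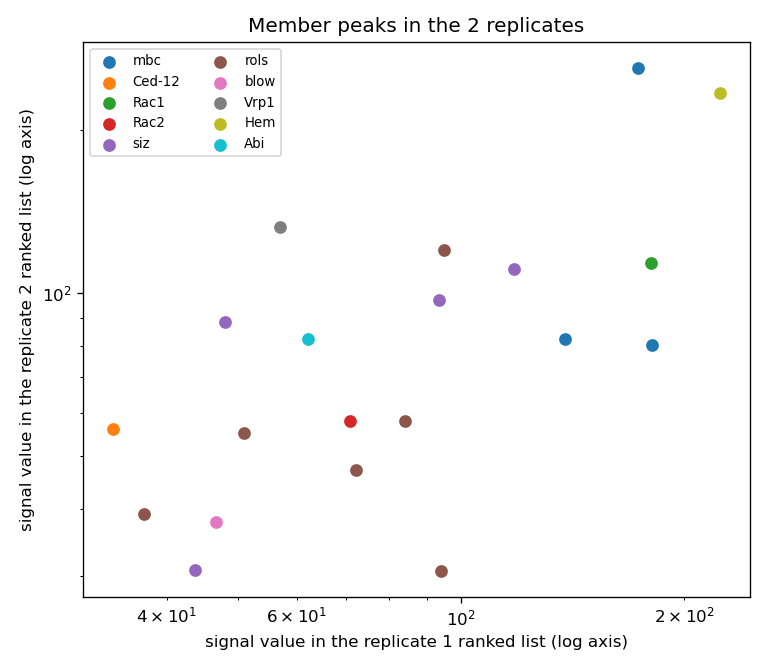
Signal values in the replicate 1 and replicate 2 ranked lists (both log axes) of 20 conservative peaks of the 10 genes. The siz peak of signal 2.94, which matches the same replicate peaks as its neighbour, is left out. The pair at the top right are Hem, at 223 in replicate 1 and 234 in replicate 2, and the mbc promoter site, at 173 and 261.

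Below the threshold, the ranked lists covered the loci densely, as they did the genome. The list behind the conservative set had from 4 peaks at Abi to 67 at rols, of which 3 and 61 were below the threshold. Per kb this was 0.559 at Abi to 1.56 at Vrp1, against 0.866 over the main arms. The peak at the Rac2 start had a −log10 IDR of 1.84, where 2 was needed. At siz the strongest peak within 500 bp of any start had a signal of 52.0 and a value of 1.53 on that scale, at an internal start. For Ced-12, Rac1, Hem and Abi no peak below the threshold in that list exceeded a signal of 41.2, and at Hem, whose called peak had 453, the strongest had 34.7.

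Other genes of actin remodelling at the fusion site gave a mixed picture. Of 40 such genes, 18 had a conservative summit in the locus (33.5% of all protein-coding genes) and 11 had one within 500 bp of an own start (17.2%). By class, a summit was in the locus of 0 of 3 further SCAR complex genes, of WASp, of 3 of 8 Arp2/3 genes, and of 5 of 9 genes for GTPases and adaptors. It was also in 7 of 11 genes for actin and filament factors and in 2 of 8 for contractile force and membrane. SCAR itself had none in any of the 4 sets, while HSPC300 had 1 in the wider joint set and in replicate 2, and Sra-1 (Cyfip) had 1 in replicate 2.

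The strongest of these 11 promoter sites was at Mtl, a Rac-like GTPase gene (chromosome 3R, 27635989 to 27636364, signal 2464, rank 13). Its summit was 225 bp from the Mtl start and 127 bp from that of CG5611. The site was in both replicate sets and stood far above the conservative sites of Rac1 (298) and Rac2 (126.8), which were not at promoters of those genes. Next was sqh, the regulatory light chain gene of nonmuscle myosin (686, 130 bp from its start). The actin gene Act5C had a promoter peak of 273 at 455 bp and a stronger one of 544 at 659 bp, and Act87E, a muscle actin gene, 161.6 at 426 bp. For the kinase gene Pak, an effector of Rac, the value was 239 at 282 bp. The Arp2/3 genes Arpc4 and Arp3 had peaks of 221 and 207, at 103 and 169 bp, the latter nearer to msk. Swip-1, an actin binding protein of myoblast fusion, had one of 216 at 345 bp that was nearer to EMC5. The formin gene dia had 150.0 at 256 bp and a stronger peak of 245 at 1043 bp, and WASp had 119 at 66 bp. Of the 11 peaks, those of WASp and Swip-1 were absent from the replicate 1 set.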

How the data were processed

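The deposited lists hold peaks on dm6, per the labels, called by the authors from each replicate alone or from both together, with a control. Aligner and peak caller: not given in the sources used here. Signal values were used as deposited, with no normalization stated. The deposited ranked lists also give the −log10 of the global IDR, and every peak of a thresholded list had at least 2 there, an IDR of 0.01 or less. Columns 13 to 20 of the ranked lists were not used. Read depth is unknown, which limits the weak peaks that can be called.

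Peaks on 6 main arms were placed by their summits on annotation release 115, and sequences were read from the Release 6 genome, whose arm lengths cover all peaks. A locus was the gene body with 2 kb on each side, and a start was any annotated transcription start of a protein-coding gene, with 500 bp as the limit for a promoter summit. Replicate peaks were matched by an overlap of at least 1 bp. Motifs were exact matches in windows of 201 bp. Counting was tested on simulated data. The 14 conservative peaks off these arms were left out. No test was made: there is 1 group. The members and the list of other genes were chosen with earlier results of these data known. Named genes were the members, genes with a start nearest to or within 500 bp of their summits, and other genes with a promoter summit. Of these last, 1 is not reported here. Acat2, CG42458, SCAR, HSPC300 and Sra-1 were named after their values were seen. Sequences were to come from each member's strongest peak, but those in exons or on the arm of blow and Vrp1 were left out, except sites of at most 30 bases. Python 3.11.15 with pandas 2.3.3 was used.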

Additional observations from a re-analysis of the deposited data

How the results depend on the processing

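The count of genes with a summit stayed within 1.5 times of 10 under 7 of 8 alternatives, from 7 at an IDR of 0.001 or less to 10 with 5 kb on each side, and leaving out a replicate gave 9 either way. With the gene body alone it was 4, as the single summits of Ced-12, Rac1, blow, Vrp1, Hem and Abi lay in the flanks. The 21 summits became 11 at an IDR of 0.001 or less, and 17 to 25 in 6 of the other alternatives, with 14 in the gene body alone. The 11 include the siz peak of signal 2.94, whose −log10 IDR was 3.65 although the replicates give it no support apart from its neighbour. Of the other 40 actin genes, 18 became 9 with the gene body alone and 14 to 26 elsewhere. The share of all protein-coding genes with a summit, 33.5%, was 40.1% in the wider joint set, 27.2% to 40.1% with a replicate left out, 24.1% and 41.2% at IDR limits of 0.001 and 0.05, 12.5% with the gene body alone, 47.4% with 5 kb and 34.4% by any overlap. Genes with a summit at an own start numbered from 4 within 250 bp to 8 at an IDR of 0.05 or less. The share of all protein-coding genes was not counted at either of these settings, so these counts have no background beside them. Peaks shared by both replicate sets fell from 14 to 13 for summits within 50 bp and to 10 for a reciprocal overlap of 50%. Of 80 counts for single genes, 53 stayed within 1.5 times. For blow the count was 0 without replicate 1, and for Ced-12 it was 0 without replicate 2. Read depth is not in the files used here and sets which weak peaks could be called.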
